A study of Mus musculus with 6 samples.

Results

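The regulators of G protein signalling (RGS proteins) were described here as every probe set on the array whose gene symbol is Rgs followed by a number. This rule found 20 of the 12488 probe sets, and they represented 13 genes: Rgs2 to Rgs11, Rgs14, Rgs16 and Rgs19. The arrays held RNA from the visual cortex of wild-type C57Bl6 mice, of which 4 lost an eye on postnatal day 100 and were killed 4 days later. The deprived group (3 arrays) was the cortex contralateral to the removed eye, which had lost its main visual input, and the non-deprived group (3 arrays) was the ipsilateral cortex of enucleated mice. All groups therefore came from operated animals, with no array of intact mice. The series describes the RNA as pooled, but not how many mice made a pool or whether arrays of a group held separate pools. The p-values then measure only the spread between these arrays, which may be technical.

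A receptor coupled to G proteins switches on the α subunit of its G protein by exchanging GDP for GTP, and the α and βγ subunits then act on enzymes and ion channels. RGS proteins bind the active α subunit and speed up the hydrolysis of its GTP, which shortens the signal. In cortex they set how long glutamate, acetylcholine, serotonin, noradrenaline and peptide receptors act on neurons. Members are sorted by what lies around their shared RGS domain. The R4 subfamily consists of little more than that domain, the R7 subfamily binds the β subunit Gβ5, the R12 subfamily can carry further domains for other G proteins, and the RZ subfamily is anchored to membranes through a string of cysteines.

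Signals were MAS5 values, an arbitrary brightness per probe set on a linear scale, and levels of different probe sets cannot be compared with each other. Arrays of different groups resembled each other as much as arrays of the same group did: Pearson's r over the tested probe sets was 0.945 to 0.961 for the former and 0.948 to 0.958 for the latter. The tissue label was checked on markers: 3 of 3 excitatory neuron genes on the array (Camk2a, Nrgn and Neurod6) and 7 of 7 GABAergic neuron genes passed the filter on dim signals. So did 3 of 3 striatal genes (Penk, Pdyn and Drd2), and 2 of 4 retinal and pineal ones, so passing the filter does not tell cortex from neighbouring tissue. The summed signal of the GABAergic genes was lower in deprived arrays, 13891 to 15701 against 17301 to 18201, although 0 of the 7 passed by limma (3 at an unadjusted p under 0.05, beside 5.18% of all genes). The lower sum came mainly from Sst (log2 difference -0.39, SE 0.08), Npy (-0.42, SE 0.11) and Pvalb (-0.25, SE 0.11). Differences were smaller for Gad1 (-0.13, SE 0.09), Gad2 (-0.14, SE 0.31) and Slc32a1 (-0.09, SE 0.17), while Vip had 0.19 (SE 0.20). Sums of signal, here and below, weigh bright probe sets most and are no measure of cell number. The part of the lower GABAergic sum in the values below was not tested. In the same arrays the activity-dependent transcription factor genes Fos and Egr1 fell in deprived cortex, with log2 differences of -2.05 (95% interval -2.32 to -1.77) and -1.13 (-1.33 to -0.94). They serve below only as a scale for the size of a change. All log2 differences are deprived minus non-deprived on log2(signal + 16), from limma.

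No Rgs gene passed the test between deprived and non-deprived cortex. Of the 20 probe sets, 15 were bright enough to be tested (mean signal over the 6 arrays of at least 134.7), and 0 of these had a limma adjusted p under 0.05, against 0.174% of all 7453 probe sets tested. The adjusted p-values of the 15 lay between 0.950 and 0.997. At an unadjusted limma p under 0.05 there were 3 of the 15, an Rgs10 probe set lower and probe sets of Rgs16 and Rgs19 higher, where 5.09% of all probe sets reached that level. By gene, on the brightest probe set, 12 were tested, 7 had a lower and 5 a higher mean in deprived arrays, and the median log2 difference was -0.11, beside 0.01 over all 5653 genes tested. The 95% interval lay within a 2-fold change in either direction for 11 of the 12 genes, the exception being Rgs6, as it did for 87.4% of all genes. It lay within a 1.5-fold change for 4 of the 12, and for 56.5% of all genes.

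**Figure D1:**
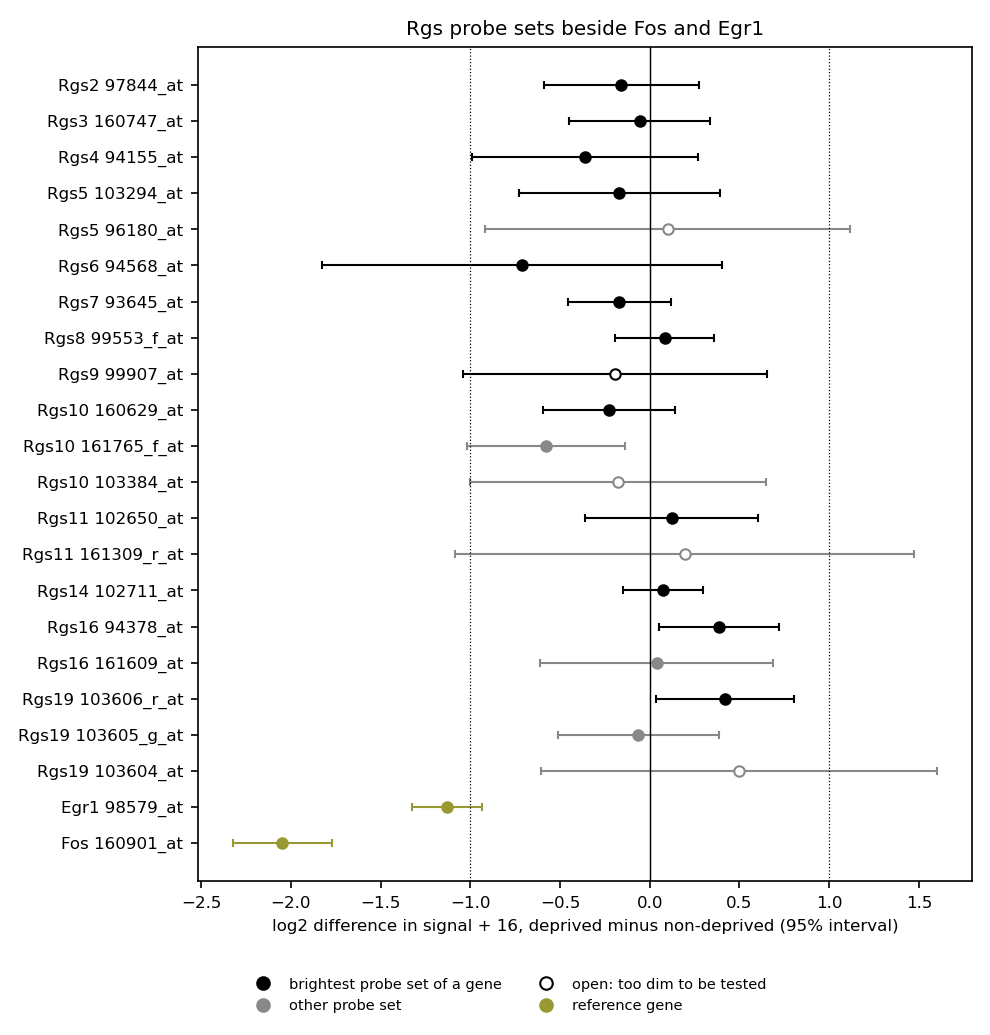
Log2 difference in signal + 16, deprived minus non-deprived, with its 95% interval, for each of the 20 Rgs probe sets and for Egr1 and Fos; dotted lines mark a 2-fold change. The 12 tested brightest probe sets lie between -0.71 (Rgs6) and 0.42 (Rgs19), while Egr1 lies at -1.13 and Fos at -2.05.

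Rgs2 and Rgs4 are the R4 members most often discussed in cortex. Rgs2 preferentially turns off Gq signalling and is itself induced quickly by strong neuronal activity, and Rgs4, abundant in cortical neurons, acts on Gi, Go and Gq. Their promoters are shown for motifs that mark activity-regulated genes, and also for the TATA box and an E-box of the clock type. The runs below, from RefSeq on build GRCm38.p6, are the 250 bases before each start site, 5′ to 3′ on the gene's own strand. They also include Rgs16, whose groups separated on its brightest probe set, and Rgs10, whose groups separated only on a second, _f probe set. Capitals mark matches, on either strand, to any motif searched.
Rgs2, chr1:144004150-144004399, minus strand: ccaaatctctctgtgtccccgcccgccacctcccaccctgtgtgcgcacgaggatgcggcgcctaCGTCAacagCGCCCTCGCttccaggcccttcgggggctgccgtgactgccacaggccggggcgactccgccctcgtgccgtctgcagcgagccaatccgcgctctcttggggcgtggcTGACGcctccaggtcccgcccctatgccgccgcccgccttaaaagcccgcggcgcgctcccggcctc
Rgs4, chr1:169747643-169747892, minus strand: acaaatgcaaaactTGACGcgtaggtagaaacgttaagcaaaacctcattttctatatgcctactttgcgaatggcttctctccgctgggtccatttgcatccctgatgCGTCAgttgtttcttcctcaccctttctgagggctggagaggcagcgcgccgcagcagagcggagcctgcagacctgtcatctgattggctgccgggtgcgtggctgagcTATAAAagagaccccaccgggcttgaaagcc
Rgs16, chr1:153740103-153740352, plus strand: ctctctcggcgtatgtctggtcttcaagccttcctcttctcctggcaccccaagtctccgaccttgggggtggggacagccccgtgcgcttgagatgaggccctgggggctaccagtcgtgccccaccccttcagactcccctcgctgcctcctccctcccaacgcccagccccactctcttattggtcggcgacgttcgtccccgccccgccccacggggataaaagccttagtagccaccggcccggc
Rgs10, chr7:128418173-128418422, minus strand: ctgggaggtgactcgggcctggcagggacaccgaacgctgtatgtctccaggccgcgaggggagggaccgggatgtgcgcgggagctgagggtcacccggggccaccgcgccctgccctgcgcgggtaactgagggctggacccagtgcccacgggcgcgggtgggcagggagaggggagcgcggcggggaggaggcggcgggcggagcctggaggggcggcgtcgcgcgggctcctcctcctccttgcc

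The motifs searched on both strands were the cAMP response element (CRE, TGACGTCA), its core (TGACG, which every full CRE contains), the AP-1 site (TGANTCA), the CArG box, the EGR site (GCGNGGGCG), the E-box of the clock type (CACGTG) and the TATA box (TATAAA). Rgs2 held the CRE core at 2 places, beginning 185 and 67 bases before the start site, and an EGR match beginning 176 bases before it. Rgs4 held the CRE core at 2 places, 236 and 141 bases before its start, and a TATA box 31 bases before it. Among all 32851 promoter windows of this length, 17.8% held the CRE core at least once and 3.90% at least 2 times. The EGR site was in 4.70% and the TATA box in 12.4% of them. The Fos window also held the CRE core at 2 places and a TATA box 33 bases before its start. It held no full CRE, AP-1 site, CArG box, EGR site or E-box of the clock type. Of the 13 genes, 11 had a window in the RefSeq table, 16 windows in all. The CRE core was found in 3 of the 16 (of Rgs2, Rgs4 and Rgs8) and the EGR site in 2 (of Rgs2 and Rgs19). The TATA box was in 4 (of Rgs3, Rgs4 and Rgs9). The E-box of the clock type was in 1 (of Rgs7), beside 6.02% of all windows. The full CRE, the AP-1 site and the CArG box had 0 matches in the 16 windows, beside 1.55%, 6.75% and 1.47% of all windows. Rgs16 and Rgs10 held none of the motifs. A match describes letters in this window and shows no binding. Sites further upstream, in these genes or in Fos, were not searched.

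Rgs2 had a slightly lower mean in deprived cortex, a difference smaller than the spread between arrays. Its signal was 362, 336 and 275 in non-deprived replicates 1 to 3 and 309.7, 246 and 310.1 in the deprived ones. The groups overlapped: deprived replicates 1 and 3 stood above non-deprived replicate 3. The means were 324 ± 44.4 and 289 ± 37.0 (SD, n = 3 each), a log2 difference of -0.16 (SE 0.19, 95% interval -0.59 to 0.27, limma adjusted p = 0.97). The lower end of that interval is a 1.51-fold fall, and it does not reach the interval of Egr1. The difference was -0.05 without deprived replicate 2, the lowest array, and -0.27 without non-deprived replicate 3.

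Rgs4 showed the wider spread of the pair. Its signal was 309.9, 452 and 494 in non-deprived replicates 1 to 3, and 305, 475 and 217 in the deprived ones. Deprived replicate 2 stood among the high non-deprived arrays, and non-deprived replicate 1 stood with deprived replicate 1. The means were 419 ± 96.4 and 332 ± 131, with a log2 difference of -0.36 (SE 0.28, 95% interval -0.99 to 0.27, limma adjusted p = 0.97). The size of this value moved either way with the array left out. It was -0.64 without deprived replicate 2 (limma adjusted p = 0.90) and -0.10 without deprived replicate 3 (limma adjusted p = 0.999). The interval reaches a 1.99-fold fall, and its lower end overlaps the interval of Egr1.

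Rgs5, the next coding gene to Rgs4 on chromosome 1 and an R4 member best known as a marker of pericytes, followed a similar order of arrays. It read 268, 371 and 497 in non-deprived and 273, 422 and 297 in deprived arrays. The groups overlapped throughout, and in both genes non-deprived replicate 3 was the highest of its group and deprived replicate 2 the highest of the other. The log2 difference was -0.17 (SE 0.25, limma adjusted p = 0.97), and 0.04 without non-deprived replicate 3. A dim second probe set of Rgs5, with a mean signal of 115, read 52.4, 127 and 155 against 104.1, 175 and 74.3. It repeated which array was highest in each group.

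Markers of vessel cells were measured beside Rgs5. Of 11 endothelial and pericyte genes on the array 6 were tested, 3 with a lower and 3 with a higher mean. Their summed signal ran from 1451 to 1677 in non-deprived and from 1338 to 1758 in deprived arrays. It was lowest in non-deprived replicate 3 and in deprived replicate 2, the arrays where Rgs5 was highest. In deprived replicate 2, Cldn5, Tagln, Flt1, Pecam1 and Vtn were each the lowest of their group, and Kdr was not. In non-deprived replicate 3 the genes differed, and the low sum there rested on Vtn. With Vtn left out, the sum of that array was the highest of its group. Vtn, a pericyte marker, was at 179 in non-deprived replicate 3 against 476 and 489 in the other two, whereas the mural gene Tagln (217) and the endothelial gene Pecam1 (412) were highest of their group there. The smallest p on the list were those of the tight-junction gene Cldn5 (log2 difference 0.40, SE 0.19) and of Tagln (-0.42, SE 0.29), and neither passed. Their part in the Rgs5 values was not tested. The further pericyte and mural genes Pdgfrb, Abcc9, Kcnj8 and Acta2 were too dim to be tested. In tissue RNA, fewer cells of a type and less RNA per cell cannot be told apart.

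Rgs16, an R4 member whose transcript is known to follow the daily clock and feeding in several tissues, was the only gene whose groups separated on the brightest probe set. It read 666, 716 and 548 in non-deprived and 789, 967 and 781 in deprived arrays, so every deprived array stood above every non-deprived one. The means were 643 ± 86.0 and 845 ± 105, with a log2 difference of 0.39 (SE 0.15, 95% interval 0.05 to 0.72). The limma adjusted p was 0.95. Separation of the groups was seen for 1 of the 12 genes, and for 10.4% of all genes tested. A dimmer probe set of Rgs16, with a mean of 201, read 131, 209 and 266 against 182, 227 and 194. It showed no such separation (log2 difference 0.04, SE 0.29), and the mean of both probe sets gave 0.21.

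Rgs8, the neighbour of Rgs16 on chromosome 1 and best known from Purkinje cells, varied little. Its _f probe set, a kind that can share probes with related transcripts, read 887, 824 and 798 in non-deprived and 901, 798 and 965 in deprived arrays. The groups overlapped, with a log2 difference of 0.08 (SE 0.12, 95% interval -0.19 to 0.36). Rgs3, a longer R4 member made in several isoforms, read 988, 856 and 1178 against 867, 1230 and 831. Deprived replicate 2 was its highest array and deprived replicate 3 its lowest, and the log2 difference of -0.06 (SE 0.18) took the other sign without non-deprived replicate 3 (0.06), deprived replicate 1 (0.02) or deprived replicate 3 (0.05).

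**Figure D2:**
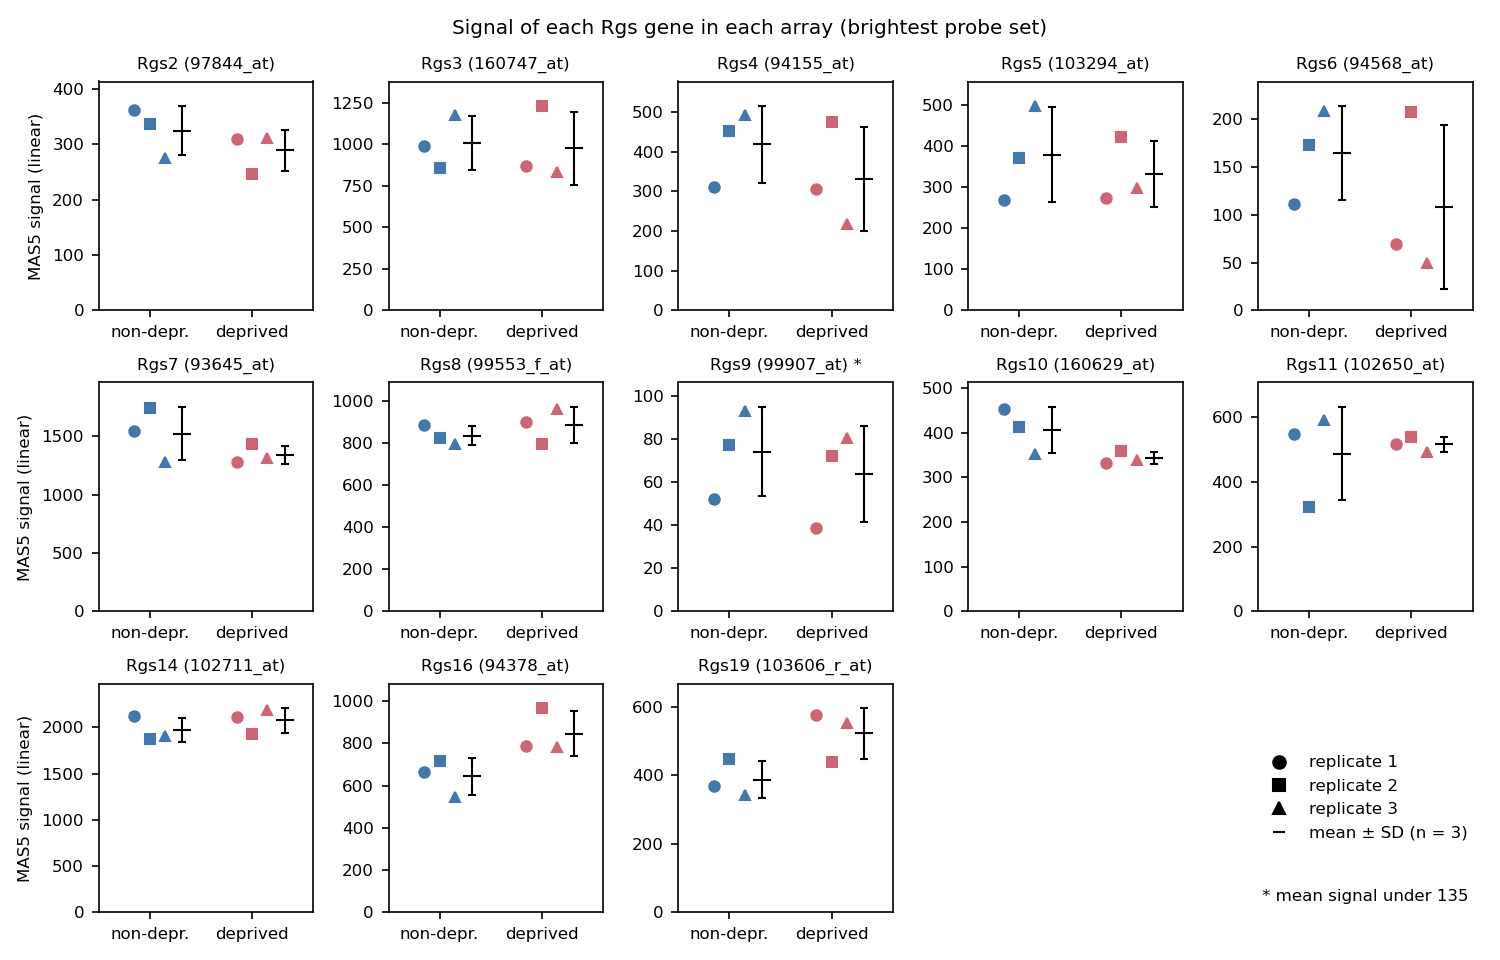
MAS5 signal (linear axes that start at 0) of each of the 13 Rgs genes on its brightest probe set in the 3 non-deprived (blue) and 3 deprived (red) arrays, with the mean ± SD of each group. The groups separate for Rgs16 alone (548 to 716 against 781 to 967). In the deprived group, Rgs4 and Rgs6 spread most widely for their level (SD 39.4% and 79.3% of the mean).

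Members of the R7 subfamily work as dimers with Gβ5 and act on Gi and Go. Rgs7, common in cortical neurons, read 1544, 1741 and 1284 in non-deprived and 1283, 1432 and 1317 in deprived arrays. Non-deprived replicate 3 fell within the deprived range. The log2 difference was -0.17 (SE 0.13, 95% interval -0.46 to 0.12). Rgs11 read 548, 323 and 589.8 against 516, 538 and 491, with non-deprived replicate 2 far below the rest. Its log2 difference was 0.12 (SE 0.22), and -0.14 without that array. A dim _r probe set of Rgs11, with a mean of 51.2, had 0.19 (SE 0.57). Gnb5, the gene of their Gβ5 partner, had a log2 difference of 0.05 (SE 0.14).

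Rgs6 had the most negative difference of the tested genes and the least certain one. It read 112, 173 and 209 in non-deprived and 69.1, 207 and 49.3 in deprived arrays. Deprived replicates 1 and 3 were the lowest of all arrays, whereas deprived replicate 2 was nearly the highest. The log2 difference was -0.71 (SE 0.50, 95% interval -1.82 to 0.40, limma adjusted p = 0.97), and -0.35 without deprived replicate 3. Its mean signal of 137 over all arrays only just passed the filter, and the deprived mean of 109 lies under the cut of 134.7. That cut is a rank among probe sets and not a background level. Detection calls were not used, so a level above background is not shown. Rgs9, known from photoreceptors and striatum, was dimmer still, with signals of 38.6 to 93.0 and a mean of 68.9. It was not tested.

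Among R12 members, Rgs14 had the narrowest range of arrays. This protein, known from hippocampal area CA2, also binds Ras proteins and inactive Gi. It read 2125, 1878 and 1910 in non-deprived and 2114, 1923 and 2183 in deprived arrays. The groups overlapped and the log2 difference was 0.07 (SE 0.10), with an interval (-0.15 to 0.30) that allows a fall of at most 1.11-fold and a rise of at most 1.23-fold. The old literature also used the name Rgs14 for Rgs16, so both were matched here by Entrez gene ID.

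Rgs10, a short R12 member found in neurons and microglia, read lower on each of its 3 probe sets. On the brightest it read 454, 413 and 352 in non-deprived and 333, 359 and 338 in deprived arrays, with an overlap of non-deprived replicate 3 and deprived replicate 2. The log2 difference was -0.23 (SE 0.16, limma adjusted p = 0.97). An _f probe set read 302, 331 and 386 against 194, 229 and 242, with no overlap. Its means were 339.5 ± 42.5 and 222 ± 24.8 and its log2 difference -0.58 (SE 0.20, 95% interval -1.02 to -0.14, limma adjusted p = 0.95). The mean of these probe sets gave -0.40 (SE 0.15, limma adjusted p = 0.93). The dim one, with a mean of 41.9, had a log2 difference of -0.18 (SE 0.36). Counting probe sets, the groups did not overlap for 2 of the 15 Rgs probe sets (the _f probe set of Rgs10 and the brighter one of Rgs16), beside 10.1% of all tested.

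Microglial markers were measured beside Rgs10. Of 7 tested genes, 6 had a higher and 1 a lower mean after deprivation (median log2 difference 0.06), and none passed the limma test. The smallest p were those of the protease gene Ctss (log2 difference 0.16, SE 0.10) and the fractalkine receptor gene Cx3cr1 (-0.29, SE 0.20), the one that was lower. Their summed signal ran from 6112 to 6923 in non-deprived and from 6454 to 7130 in deprived arrays, ranges that overlap. Aif1 was too dim to be tested.

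Rgs19, the RZ member also called GAIP, gave opposite signs on its tested probe sets. The brightest, an _r probe set designed under relaxed rules, read 369.5, 448 and 344 in non-deprived and 577, 438 and 554 in deprived arrays. Deprived replicate 2 fell below non-deprived replicate 2 and the groups overlapped. The log2 difference was 0.42 (SE 0.17, limma adjusted p = 0.95). A _g probe set read 316, 239.5 and 281 against 300.4, 254 and 242, with a log2 difference of -0.06 (SE 0.20). The dim one, with a mean of 60.3, had 0.50 (SE 0.49).

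Some members shared the arrays on which they were high, whatever the group. This pattern was chosen after the values were seen. Deprived replicate 2 was the highest of the 3 deprived arrays for 8 of the 12 tested genes: Rgs3, Rgs4, Rgs5, Rgs6, Rgs7, Rgs10, Rgs11 and Rgs16. It was the lowest of them for the other 4 (Rgs2, Rgs8, Rgs14 and Rgs19). Over all 5653 genes tested it was the highest for 32.4% and the lowest for 37.0%. Not all of the 8 were high there: in deprived replicate 2, Rgs7 lay at 0.007 (log2) from its 6-array mean and Rgs10 at -0.05. The _f probe set of Rgs10 was highest in deprived replicate 3, and its dim one in deprived replicate 1. Non-deprived replicate 3 was the highest of its group for 5 of the 12, beside 33.5% of all genes. Rgs4, Rgs5 and Rgs6 deviated with the same sign as each other in every array. Rgs6 deviated by more than Rgs4 in every array but non-deprived replicate 1. Rgs4 and Rgs6 lay 0.38 and 0.70 (log2) above their 6-array means in deprived replicate 2, and at -0.69 and -1.07 in deprived replicate 3. Within a group, the wider of the ranges of Rgs4 (1.07 log2 units between its highest and lowest array) was above that of 87.8% of all tested probe sets, and that of Rgs6 (1.77) above 96.5%. Rgs14 (0.18) was above only 6.06% of them. These shares are over tested probe sets of every brightness and not those of like signal. The part of signal level in them was not tested.

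**Figure D3:**
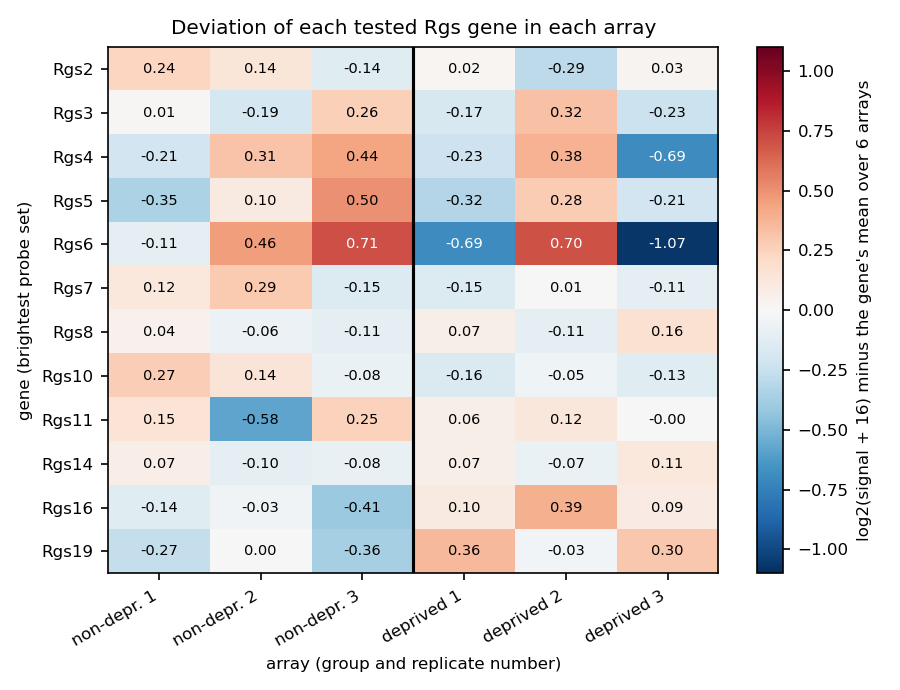
Deviation of log2(signal + 16) from the gene's mean over the 6 arrays (colour and printed value) for the 12 tested Rgs genes (rows) in each array (columns); the line divides the groups. Rgs4, Rgs5 and Rgs6 are high in non-deprived replicate 3 and deprived replicate 2, and Rgs16 alone is below its mean in every non-deprived array and above it in every deprived one.

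The genes around the RGS proteins were counted on lists of their partners and targets. Of 54 distinct genes tested, 0 passed in either direction by limma, beside 0.195% of all genes. At an unadjusted p under 0.05 there were 4, 2 lower and 2 higher, beside 5.18% of all genes, and the median log2 difference of the 54 was 0.01. The 7 other genes with an RGS domain had a median log2 difference of 0.10, 3 lower and 4 higher. Among them Axin2, a scaffold of Wnt signalling, had -0.29 (SE 0.19) and Snx14, a sorting nexin, 0.18 (SE 0.17).

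The 10 tested G protein α subunits had a median of 0.04 (3 lower, 7 higher). Gnao1, the Go subunit that many RGS proteins act on, had -0.16 (SE 0.09) and Gna13 0.21 (SE 0.14). The 8 β and γ subunits had a median of -0.11 (6 lower, 2 higher), with Gnb2 at -0.15 (SE 0.10) and Gnb1 at -0.12 (SE 0.10). The 10 effectors had a median of -0.04 (7 lower, 3 higher). Prkcb, a protein kinase C acting downstream of Gq, had -0.19 (SE 0.07) and Cacna1b, the N-type calcium channel that βγ inhibits, -0.17 (SE 0.11). None of these passed.

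The 15 receptors coupled to Gq or Gi had a median of 0.02 (5 lower, 10 higher). The neuropeptide Y receptor Npy2r, on an _f probe set, had 0.38 (SE 0.16) and the nociceptin receptor Oprl1 0.24 (SE 0.15). The 4 other modulators had a median of 0.00. Rap1gap, which inactivates Rap1 and binds Gi and Go family subunits, read 3222, 3888 and 4226 in non-deprived and 2581, 2910 and 2725 in deprived arrays. Its log2 difference of -0.45 (SE 0.11) had the smallest p of all the pathway genes (limma adjusted p = 0.43). Pcp2, a Gi and Go regulator best known from Purkinje cells, read 349.6, 453 and 384 against 899, 474 and 614 on an _r probe set (log2 difference 0.68, SE 0.22, limma adjusted p = 0.90).

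**Figure D4:**
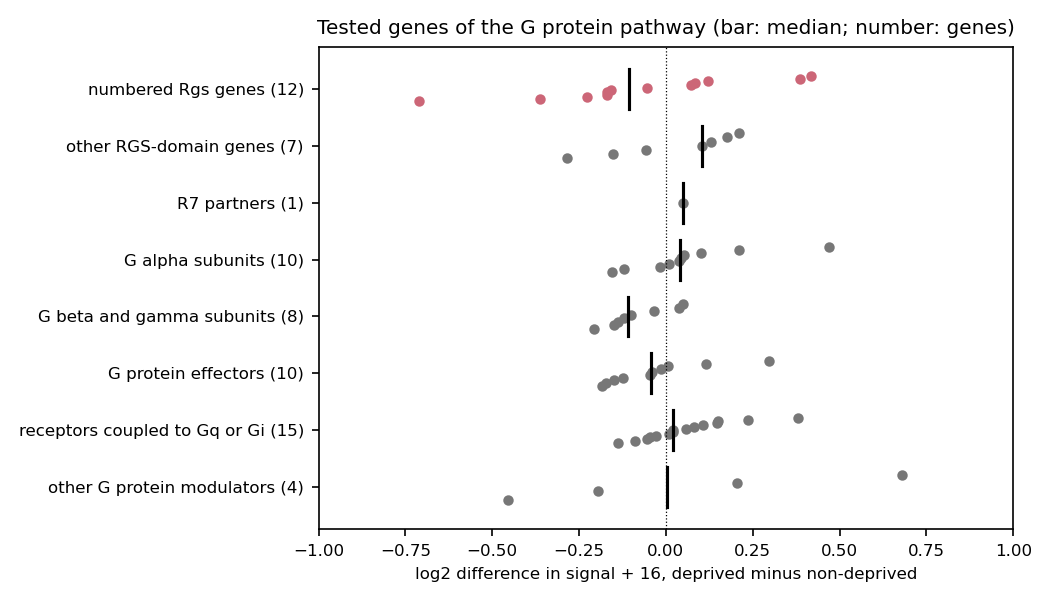
Log2 difference in signal + 16, deprived minus non-deprived, of each tested gene (points) of the numbered Rgs family and of 7 lists of its partners and targets, with the median of each list (bar). Medians lie between -0.11 and 0.10 and no gene passed the limma test.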

How the data were processed

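The authors deposited 1 table of MAS5 signal intensity (linear, arbitrary units) for 12488 probe sets on 6 arrays. The summary method, MAS5, comes from the submitters' processing notes, which give no settings. The deposited arrays shared a 2% trimmed mean of 500.3, so no further scaling was made. Array number limits the precision, and detection calls and scanner files were not used here. After 66 control probe sets were set aside, the top 60% by mean signal (7453, at least 134.7) were tested on log2(signal + 16) with limma 3.58.1 in R 4.3.3 (lmFit, eBayes with an intensity trend, group as the only term, two-sided). Benjamini-Hochberg adjustment ran over all of them, with a threshold of 0.05. The pseudocount makes fold changes of dim probe sets smaller. Dim probe sets of the family take their values from the same fit with no filter. The fit was tested on simulated data.

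Genes were named by the platform annotation, updated by Entrez ID to RefSeq symbols (GRCm38.p6). Of the probe sets, 10855 had 1 symbol (10839 matched by ID), 396 had several and 1237 none. Each gene is represented by its brightest probe set, the others being named. Every Rgs gene is reported, with the signal of every array where its brightest probe set averages at least 134.7. For each list of partners and targets the 2 genes with the smallest p are named. The family, the lists and the motifs were chosen with earlier results of these data known. The alternatives were other normalization, pseudocounts, filters and variance models, the replicate number as a block, gene means and leaving out each array.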

Additional observations from a re-analysis of the deposited data

How the results depend on the processing

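In each of the 14 other settings tried, 0 Rgs probe sets and 0 pathway genes by limma had an adjusted p under 0.05, as had 0 Rgs probe sets without the _f, _r, _g and _i ones (added after seeing the data). The number of all probe sets past it was 13, and 7 to 10 when an array was left out (7 without non-deprived replicate 2). Rgs2 ranged from -0.27 to -0.05 and Rgs4 from -0.64 to -0.10 in log2 difference. Signs reversed when an array was left out for Rgs3 (-0.23 to 0.062), Rgs5 (-0.39 to 0.040) and Rgs11 (-0.14 to 0.28), and for Rgs19 on its other tested probe set (-0.064). The cause was not tested. Rgs2 fell below the top 40% filter, and Rgs6 below it and below the filter of some fits without 1 array, so they have no value there. Same-numbered arrays did not deviate together (correlations 0.003, 0.05 and -0.02), so the number was not taken as pairing. With the replicate block 10 probe sets and 0 Rgs genes passed, and Rgs2 stayed at -0.16 and Rgs4 at -0.36. Detection calls were not used here, so signals near 134.7 may be background.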
